A study of Mus musculus with 2 samples.

Results

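The genes that carry pyruvate into mitochondria's oxidative metabolism and turn the citric acid cycle were followed in sorted cells of the embryonic mouse sinoatrial node, the tissue that paces the heart. They were chosen by symbol from a list of 33 genes. Of these, 32 have an entry among the 12557 genes (12446 symbols) of the deposited expression table, and Pdp1, a pyruvate dehydrogenase phosphatase gene, was not analysed here. The mutant sample was pooled from ICR embryos with Hcn4-CreERT2, Isl1f/f and Rosa-tdTomato, and the control sample from ICR embryos with Hcn4-CreERT2, Isl1+/+ and Rosa-tdTomato. Every embryo group therefore received the recombinase, the reporter and tamoxifen, the last at E10.5, and cells were collected 36 hours later, at an age labelled E12.5 for both samples. Hcn4-CreERT2 drives recombination where the pacemaker channel gene Hcn4 is expressed, so cells outside that domain keep Isl1, and the tdTomato-positive cells were sorted after CD31-bead removal of endothelial cells. How many embryos went into a pool is not stated in the labels.

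Each genotype had 1 library, so there was no replicate error and no test. The library totals were estimated from the deposited values, at 119018888 reads in the mutant and 110117186 reads in the control. The intervals given beside ratios are 95% intervals for counting error only, and are narrower than the spread that independent animals would show. Expression is in RPKM, read number divided by exon length and library total, which allows levels of different genes to be set side by side. As the check of genotype, Isl1 stood at 1.52 RPKM in the mutant library and 7.65 RPKM in the control library. The deposited value covers several exons, and the sources used here do not say which are floxed. Of the node's defining markers, Hcn4 was at 0.541 RPKM in the mutant library and 1.99 RPKM in the control library, and Shox2 at 8.64 RPKM in the mutant library and 14.8 RPKM in the control library.

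Pyruvate made by glycolysis enters mitochondria and is turned into acetyl-CoA by the pyruvate dehydrogenase complex, whose activity kinases (Pdk genes) switch off and phosphatases (Pdp genes) switch on. Citrate synthase joins acetyl-CoA to oxaloacetate, and the cycle then oxidises the product back to oxaloacetate while filling the carriers that feed the respiratory chain. Pyruvate carboxylase refills the cycle, malic enzymes drain it, and malate dehydrogenases with aspartate aminotransferases form the shuttle that moves reducing power into mitochondria. Heart muscle depends on this cycle heavily after birth, while the embryonic heart makes more use of glycolysis.

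The pathway was expressed at a high level in both libraries. The 32 genes ranged between 1.15 and 981 RPKM in the mutant library (median 89.6) and between 1.13 and 755 RPKM in the control library (median 96.7), against a median over all genes of 4.02 RPKM and 4.81 RPKM in those libraries. The median member sat at percentile 97.1 of all genes in the mutant library and 97.4 in the control library, and 16 of the 32 genes reached 100 RPKM in both. The highest were Mdh1, the cytosolic malate dehydrogenase, Idh2, the mitochondrial NADP-linked isocitrate dehydrogenase, and Mdh2, the mitochondrial malate dehydrogenase. Pdp2, a pyruvate dehydrogenase phosphatase gene, was lowest, with Me3 and Pdk4 also below 5 RPKM in both libraries.

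**Figure D1:**
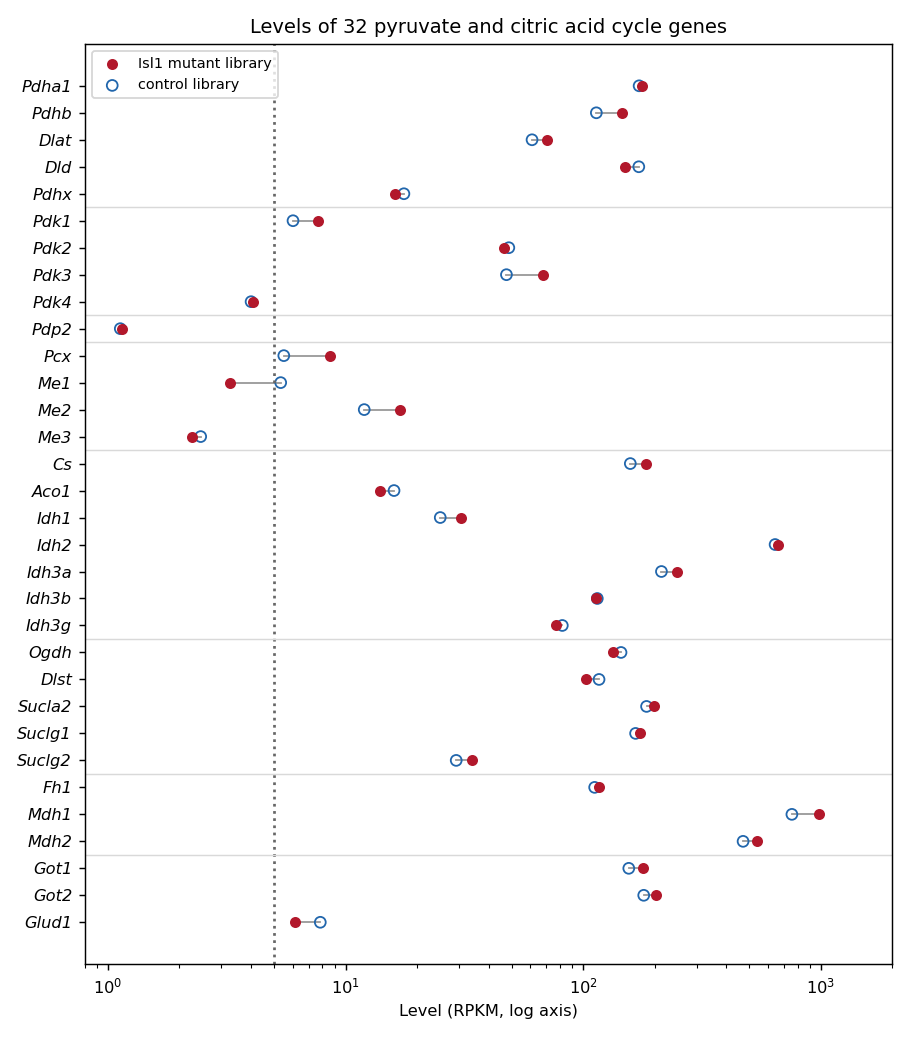
Levels of the 32 measured genes in RPKM on a log axis, with 1 filled point for the Isl1 mutant library and 1 open point for the control library; grey lines separate the groups by role and the dotted line marks 5 RPKM. Points of a gene lie close together for most genes, and the widest gaps are at Me1, Pcx, Pdk3 and Me2.

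Differences between the libraries were small across the pathway. A gene was counted by size on the log2(RPKM + 1) scale, mutant over control, if it reached 5 RPKM in at least 1 library, which 29 of the 32 members did. At this rule 0 of 29 members were at least 1.5-fold higher and 0 were at least 1.5-fold lower, against 3.77% and 11.8% of the 6343 genes that reached the same level. At 2-fold the members' counts were again 0 and 0, against 1.01% and 2.68% of genes. A ratio above 1 was found for 19 of 29 members (65.5%), against 38.1% of genes, and the median log2 ratio was 0.10 over members and -0.10 over all genes that reached 5 RPKM. Within 1.2-fold lay 20 of 29 members (69.0%), against 53.1% of genes. All these counts describe a pair of libraries and do not show that the pathway stands apart from other genes.

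The level of the genes moved with the ratio and is given beside these counts. In 10 bins of expression the median log2 ratio of all genes was -1.29 in the lowest and 0.02 in the highest, which holds 21 of the 32 members, and the share of genes with a ratio above 1 was 23.7% in the lowest bin and 52.9% in the highest. Among the 697 genes whose geometric mean of both libraries was 50 RPKM or more, 58.2% had a ratio above 1 and 66.7% lay within 1.2-fold, and among the 19 members there the counts were 14 (73.7%) and 16 (84.2%). The median log2 ratio in this range was 0.10 for members and 0.05 for all genes. By the size rule, 43 of these 697 genes passed 1.5-fold upwards and 19 downwards, and 0 of the 19 members did either. Under 50 RPKM, 196 of 5646 genes passed it upwards and 731 downwards, and again 0 of the 10 members. The 11.8% of genes that were lower thus came mostly from levels under 50 RPKM, where few members lie. That share is therefore not matched to the members in level. Set against the median of its own level bin, 22 of the 32 members were higher and 10 lower, where by definition as many genes of a bin lie above its median as below. The highest bin spans 29.7 to 11776 RPKM, so its median matches its members only roughly in level.

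**Figure D2:**
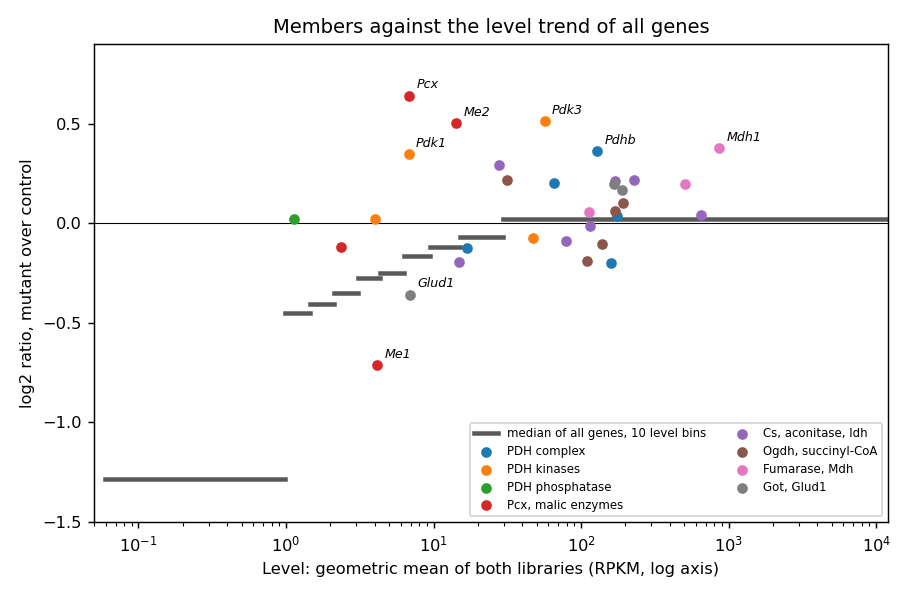
Log2 ratio of RPKM (mutant over control) against level, the geometric mean of both libraries in RPKM on a log axis, for the 32 members, coloured by role; grey bars give the median of all genes in 10 level bins. The bars climb between -1.29 and 0.02 with level, most members of the top bin lie near its bar, and Pcx, Me2, Pdk1 and Pdk3 lie above theirs while Me1 lies below.

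The 5 genes of the pyruvate dehydrogenase complex went in different directions by small amounts, with 3 higher and 2 lower. Pdhb, the beta subunit of the decarboxylase, stood at 146 RPKM in the mutant library and 114 RPKM in the control library, 1.29-fold higher (interval 1.26 to 1.31). Its partner Pdha1, the X-linked alpha subunit that the kinases phosphorylate, differed little, at 176 RPKM in the mutant library and 172 RPKM in the control library (1.02-fold, interval 1.01 to 1.04). The level of Pdha1 over that of Pdhb was thus 1.205 in the mutant library and 1.51 in the control library. Dlat, the acetyltransferase core, stood at 70.2 RPKM in the mutant library and 60.9 RPKM in the control library, 1.15-fold higher. Dld, the lipoamide dehydrogenase that this complex shares with the oxoglutarate dehydrogenase complex, was at 149 RPKM in the mutant library and 171 RPKM in the control library, 1.15-fold lower. Pdhx, which binds Dld to the core, was 1.09-fold lower, at 16.1 RPKM in the mutant library and 17.6 RPKM in the control library. Pdha1 overlaps Map3k15 on the opposite strand, which is listed at 147 RPKM in the mutant library and 145 RPKM in the control library, and without a stranded count reads of such a pair cannot be told apart.

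Of the 4 pyruvate dehydrogenase kinases, Pdk3 and Pdk1 were higher in the mutant library and Pdk2 and Pdk4 near their control values. Pdk3 (mm9, chromosome X, 91009946 to 91077540) stood at 67.9 RPKM in the mutant library and 47.5 RPKM in the control library, 1.43-fold higher (interval 1.39 to 1.46, from at least 17147 and 11104 reads). Pdk1, known as a target of hypoxia-inducible factor, stood at 7.65 RPKM in the mutant library and 6.01 RPKM in the control library, 1.27-fold higher (interval 1.22 to 1.33). Pdk2, a widely expressed form, was at 46.2 RPKM in the mutant library and 48.6 RPKM in the control library, 1.05-fold lower. Pdk4, the form that fasting and fatty acids induce in muscle, was at 4.07 RPKM in the mutant library and 4.01 RPKM in the control library, and its interval includes 1 (0.947 to 1.09).

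The kinases' summed level was 126 RPKM in the mutant library and 106 RPKM in the control library, 1.19-fold higher. Pdk3 made up 54.0% of this sum in the mutant library and 44.8% in the control library, and Pdk2 36.7% in the mutant library and 45.8% in the control library. Pdk3 over Pdk2 was thus 1.47 in the mutant library and 0.977 in the control library, where the 2 forms were nearly level. No interval was computed for this ratio between genes. Of the phosphatases, only Pdp2 was analysed here, at 1.15 RPKM in the mutant library and 1.13 RPKM in the control library, with an interval that includes 1 (0.888 to 1.16).

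**Figure D3:**
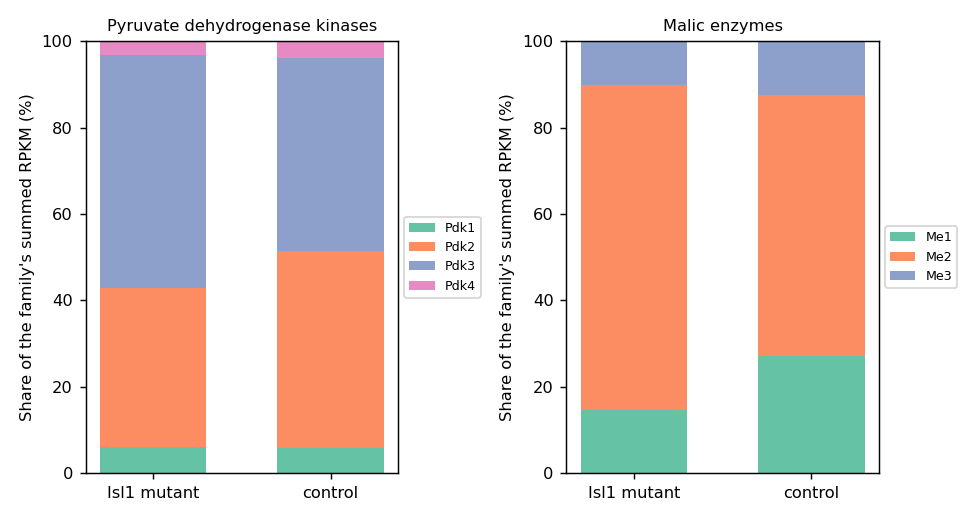
Shares (%) of the summed RPKM of the pyruvate dehydrogenase kinase genes (left) and of the malic enzyme genes (right), with the Isl1 mutant library left of the control library in each panel. Pdk3 fills 54.0% of the kinase bar in the mutant library and 44.8% in the control library, and Me2 fills 75.5% of the malic enzyme bar in the mutant library and 60.6% in the control library.

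The widest ratios of the pathway belonged to enzymes that add carbon to the cycle or take it out. Pcx, pyruvate carboxylase (mm9, chromosome 19, 4510472 to 4621752), stood at 8.57 RPKM in the mutant library and 5.50 RPKM in the control library, a ratio of RPKM of 1.56 (interval 1.48 to 1.64, from at least 4066 and 2413 reads). Me1, the cytosolic NADP-linked malic enzyme (mm9, chromosome 9, 86474970 to 86589947), stood at 3.26 RPKM in the mutant library and 5.34 RPKM in the control library, 1.64-fold lower (interval 1.52 to 1.77, with 1147 and 1739 reads as minimums). Both pass 1.5-fold as plain ratios and neither does on the log2(RPKM + 1) scale, where they read 0.56 and -0.57. The log2 ratio of Me1 was -0.71, while the median gene of its level bin had -0.28. That of Pcx was 0.64, while the median gene of its bin had -0.16.

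The mitochondrial malic enzymes did not follow Me1. Me2, the NAD-linked form, stood at 17.0 RPKM in the mutant library and 12.0 RPKM in the control library, 1.42-fold higher (interval 1.37 to 1.47). Me3, the mitochondrial NADP-linked form, was at 2.27 RPKM in the mutant library and 2.46 RPKM in the control library; its interval includes 1 (0.814 to 1.04), and it lies above the median of its level bin. Me1 made up 14.5% of the malic enzymes' summed level in the mutant library and 27.0% in the control library, and the level of Me1 over that of Me2 was 0.192 in the mutant library and 0.445 in the control library.

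The bases before the start sites of Pcx, Pdk3 and Me1 are shown because these genes are among those with a ratio of at least 1.4-fold in either direction. They are RefSeq sequences of build GRCm38.p6, while the expression table uses mm9. Me2 also passed this ratio, but no promoter sequence of it was available in the RefSeq set used. Each run holds the 250 bases before the most upstream of the gene's listed starts, 5′ to 3′ on the gene's own strand, and capitals mark ACGTG, the core of the hypoxia response element, on either strand. Pcx lies on the plus strand, at chr19:4510222-4510471. Pdk3 lies on the minus strand, at chrX:93832151-93832400. Me1 lies on the minus strand, at chr9:86695915-86696164.
Pcx: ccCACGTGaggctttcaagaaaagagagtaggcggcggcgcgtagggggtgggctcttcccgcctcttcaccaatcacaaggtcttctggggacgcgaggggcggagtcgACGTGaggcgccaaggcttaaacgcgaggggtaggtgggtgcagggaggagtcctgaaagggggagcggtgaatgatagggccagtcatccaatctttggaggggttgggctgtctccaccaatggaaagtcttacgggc
Pdk3: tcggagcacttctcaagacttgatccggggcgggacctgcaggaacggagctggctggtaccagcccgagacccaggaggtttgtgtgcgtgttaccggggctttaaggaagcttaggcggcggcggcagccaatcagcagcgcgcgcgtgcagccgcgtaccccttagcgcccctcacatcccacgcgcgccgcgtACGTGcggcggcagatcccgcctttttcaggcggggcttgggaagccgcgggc
Me1: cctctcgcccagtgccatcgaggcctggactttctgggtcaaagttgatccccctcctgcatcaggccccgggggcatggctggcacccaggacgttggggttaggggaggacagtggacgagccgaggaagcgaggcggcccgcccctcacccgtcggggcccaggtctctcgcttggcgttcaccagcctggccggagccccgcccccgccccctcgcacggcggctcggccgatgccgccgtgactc

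Pcx holds ACGTG at 3 places, of which 2 are the strands of 1 palindrome, CACGTG, also the letters of an E-box, and Pdk3 holds it once, 53 bases before the start. Me1 holds none in this window, the first of its 2 listed starts, but does when both starts are counted. Over all listed starts, ACGTG was found before 9 of the 30 members with a promoter in the RefSeq table (Pdhb, Pdk2, Pdk3, Pdp2, Pcx, Idh3g, Ogdh, Mdh1 and Me1) and before 18.5% of all its genes. That share covers 27025 genes, whether or not they are in the expression table. A gene counts through any of its starts, and the number of starts was not matched. The G and C content of these windows, taken at each gene's richest listed start, had a median of 62.0% over the members and 52.8% over all genes, and its part in the shares of ACGTG was not tested. AAGGTCA, an element of estrogen-related receptors and other nuclear receptors, was found before 1 member (Got1) and 4.7% of genes, and CTAATG or CTAATT, homeodomain-type letters, before 3 members (Cs, Ogdh and Fh1) and 15.1% of genes. Both strands were searched, and a match is a run of letters and not a binding site.

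Citrate synthase, the cytosolic aconitase and the isocitrate dehydrogenases made up 7 genes, of which 4 were higher and 3 lower, with ratios between 0.874 and 1.22. Cs, citrate synthase, stood at 183 RPKM in the mutant library and 158 RPKM in the control library, 1.16-fold higher (interval 1.15 to 1.17). Aco1, the cytosolic aconitase that also acts as an iron regulatory protein, was at 14.0 RPKM in the mutant library and 16.0 RPKM in the control library, 1.14-fold lower. Idh3a, the catalytic subunit of the NAD-linked isocitrate dehydrogenase of the cycle, was at 248 RPKM in the mutant library and 213 RPKM in the control library, 1.16-fold higher. Its partner Idh3b was at 114 RPKM in the mutant library and 115 RPKM in the control library, with an interval that includes 1 (0.976 to 1.01). Idh3b turns slightly higher when ratios are centred on all genes, and it overlaps Nop56. Idh3g, the other partner, was 1.06-fold lower, at 76.9 RPKM in the mutant library and 81.7 RPKM in the control library. The alpha subunit therefore made up 56.5% of the 3 subunits' summed level in the mutant library and 52.1% in the control library.

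The NADP-linked isocitrate dehydrogenases were dominated by the mitochondrial form. Idh2 stood at 659 RPKM in the mutant library and 642 RPKM in the control library, 1.03-fold higher (interval 1.02 to 1.03). Idh1, the cytosolic form, stood at 30.7 RPKM in the mutant library and 25.0 RPKM in the control library, 1.22-fold higher (interval 1.19 to 1.27). Idh1 made up 4.44% of their sum in the mutant library and 3.76% in the control library.

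The oxoglutarate dehydrogenase complex was slightly lower and the succinyl-CoA ligase genes slightly higher in the mutant library. Ogdh, its decarboxylase, stood at 134 RPKM in the mutant library and 144 RPKM in the control library, 1.08-fold lower (interval of the ratio 0.921 to 0.938). Dlst, its succinyltransferase core, stood at 102 RPKM in the mutant library and 117 RPKM in the control library, 1.14-fold lower (interval of the ratio 0.866 to 0.889). With Dld, given above, the 3 genes of this complex all had ratios below 1 on the deposited scale. They stayed lower after centring on all genes, where the log2 ratio of Ogdh was -0.03, and after subtracting the level bin's median. A ratio below 1 was found for 67.1% of all measured genes, while 63.6% of the 308 genes at 100 RPKM or more had a ratio above 1. Suclg1, the ligase's alpha subunit, was at 173 RPKM in the mutant library and 166 RPKM in the control library, 1.04-fold higher. Sucla2, the ADP-specific beta subunit, was at 198 RPKM in the mutant library and 185 RPKM in the control library, 1.07-fold higher. Suclg2, the GDP-specific beta subunit, was at 34.0 RPKM in the mutant library and 29.2 RPKM in the control library, 1.16-fold higher. Sucla2 was the main beta subunit, with 85.4% of the sum of both in the mutant library and 86.3% in the control library.

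The last steps of the cycle and the malate-aspartate shuttle enzymes were higher in the mutant library, 5 of 5 of them, by 1.04-fold to 1.30-fold. All of them stood above 100 RPKM, and 63.6% of the 308 genes at that level had a ratio above 1. Fh1, fumarase, stood at 116 RPKM in the mutant library and 112 RPKM in the control library, 1.04-fold higher. Mdh1 (mm9, chromosome 11, 21456790 to 21472370) stood at 981 RPKM in the mutant library and 755 RPKM in the control library, 1.30-fold higher (interval 1.29 to 1.31), and Mdh2 at 539 RPKM in the mutant library and 471 RPKM in the control library, 1.15-fold higher. Mdh1 over Mdh2 was 1.82 in the mutant library and 1.60 in the control library. Got1, the cytosolic aspartate aminotransferase, was at 178 RPKM in the mutant library and 156 RPKM in the control library, 1.15-fold higher. Got2, the mitochondrial form, was at 202 RPKM in the mutant library and 180 RPKM in the control library, 1.12-fold higher. A processed copy of Got2 (Got2-ps1) is annotated elsewhere in the genome, so reads may be divided between them, and Mdh1 overlaps Wdpcp. Glud1, glutamate dehydrogenase, which makes oxoglutarate from glutamate, went the other way, at 6.11 RPKM in the mutant library and 7.83 RPKM in the control library, 1.28-fold lower (interval 1.21 to 1.36). Its log2 ratio was -0.36, while the median gene of its level bin had -0.16.

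**Figure D4:**
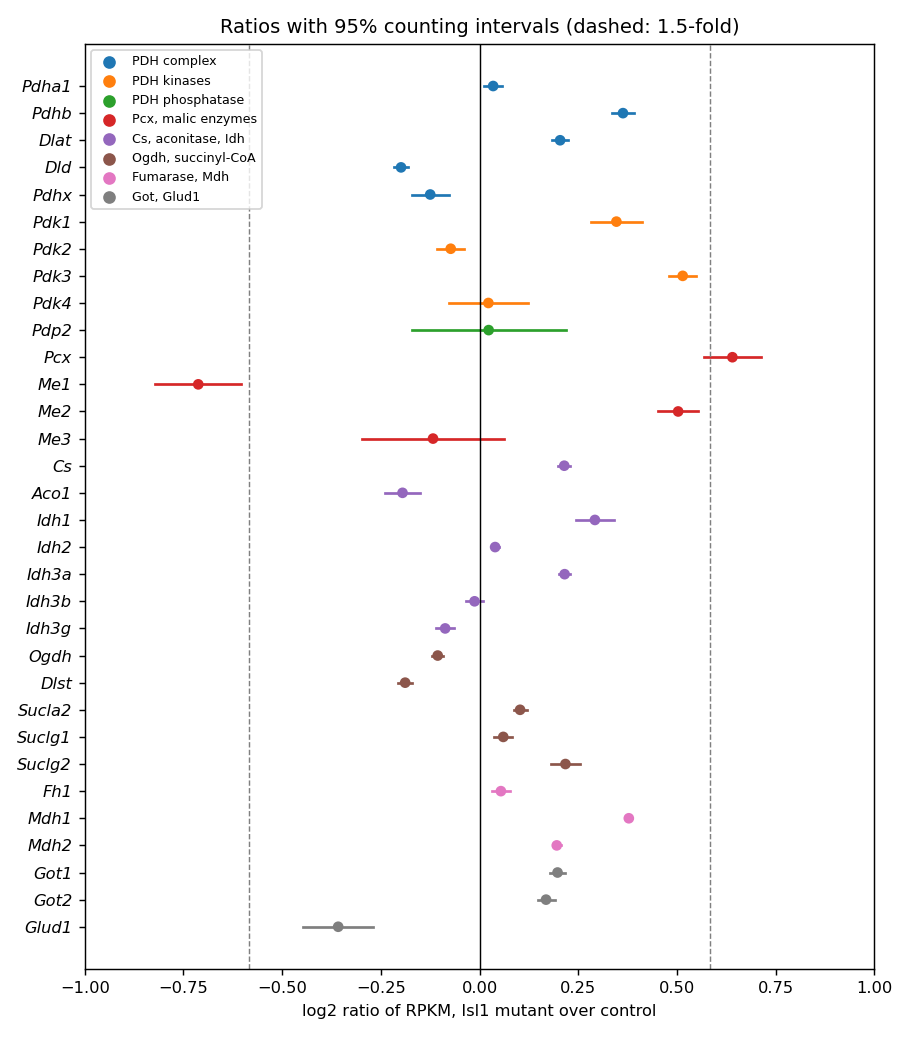
Log2 ratio of RPKM (Isl1 mutant over control) of each measured gene, coloured by role, with horizontal lines for the 95% counting interval and dashed lines at 1.5-fold. Pcx lies past the dashed line on the right and Me1 past the one on the left, and the intervals of Pdk4, Pdp2, Idh3b and Me3 include 0.

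Other genes of the pathway were counted by the same rule. Of all measured genes 32.9% had a ratio above 1, and of genes at 5 RPKM 3.77% and 11.8% were at least 1.5-fold higher and lower. A ratio above 1 was more frequent at high levels, with 58.2% of genes at 50 RPKM or more and 63.6% at 100 RPKM or more. Ldha, Ldhb and the succinate dehydrogenase genes all lay above 50 RPKM, so the share over all genes does not match them in level. Of the lactate and pyruvate genes, 7 of 8 measured were higher, and 3 of the 7 at 5 RPKM were at least 1.5-fold higher. Ldha, a lactate dehydrogenase subunit, was at 1135 RPKM in the mutant library and 550 RPKM in the control library (2.06-fold higher), and Ldhb, the subunit typical of heart, at 666 RPKM in the mutant library and 553 RPKM in the control library (1.204-fold higher). Slc16a3 and Slc16a1, lactate transporters, were 2.84-fold and 1.81-fold higher. The mitochondrial pyruvate carrier genes, listed under their older names Brp44l and Brp44, lay nearer 1, at 12.4 and 22.9 RPKM in the mutant library and 11.0 and 25.1 RPKM in the control library, with ratios of 1.12 and 0.913.

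The rest of the cycle moved little. Of 5 measured genes, 3 were higher and 2 lower, with 0 past 1.5-fold. Sdhb, the iron-sulphur subunit of succinate dehydrogenase, stood at 79.8 RPKM in the mutant library and 61.8 RPKM in the control library, 1.29-fold higher, while Sdha, Sdhc and Sdhd had ratios between 0.995 and 1.02. Pdpr, a regulatory subunit of the phosphatase, was 1.34-fold lower, at 5.44 RPKM in the mutant library and 7.30 RPKM in the control library.

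Cofactor, shuttle, glutamine and regulator genes had mixed ratios. Among cofactor genes, 3 of 5 measured were higher and none of the 3 at 5 RPKM was past 1.5-fold, and Lias, lipoic acid synthase, was 1.24-fold lower (8.27 RPKM in the mutant library and 10.3 RPKM in the control library). Among shuttle genes, 4 of 7 were higher, and Slc25a13, an aspartate-glutamate carrier, was at 7.68 RPKM in the mutant library and 4.52 RPKM in the control library (1.70-fold higher), past 1.5-fold by the size rule. Acly, which splits exported citrate, was 1.35-fold lower, at 17.6 RPKM in the mutant library and 23.6 RPKM in the control library. Among glutamine genes, 2 of 7 were higher and none of the 3 at 5 RPKM was past 1.5-fold. Among regulators, 3 of 8 were higher, a share near that of all genes. Ppargc1b, a coactivator of mitochondrial genes, was at 9.10 RPKM in the mutant library and 5.47 RPKM in the control library (1.66-fold higher). Hif1a, a hypoxia-inducible factor subunit that is controlled mainly at the protein level, was 1.49-fold lower (17.8 RPKM in the mutant library and 26.5 RPKM in the control library), and Myc was 4.49-fold lower (1.98 RPKM in the mutant library and 8.89 RPKM in the control library), on 57 and 237 reads as minimums.

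**Figure D5:**
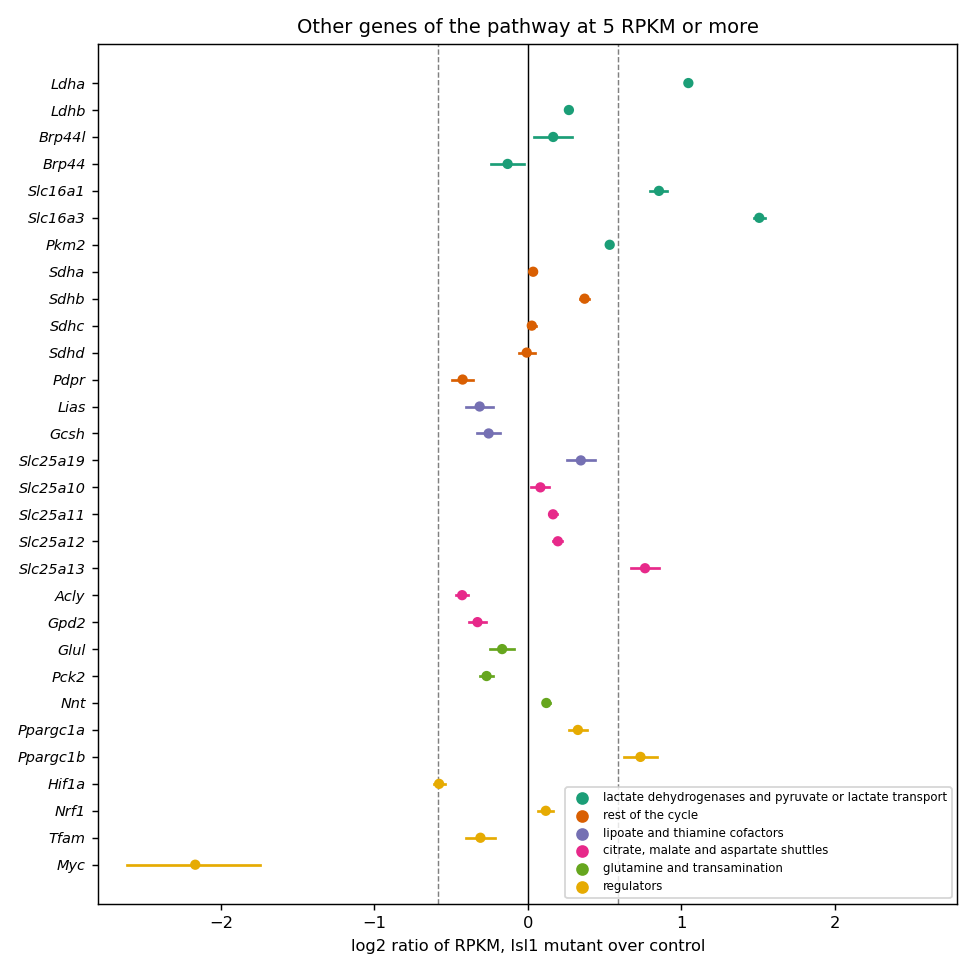
Log2 ratio of RPKM (Isl1 mutant over control) of the other pathway genes that reached 5 RPKM, coloured by list, with lines for the 95% counting interval and dashed lines at 1.5-fold. Ldha, Slc16a1, Slc16a3, Slc25a13 and Ppargc1b lie past the dashed line on the right and Myc past the one on the left, while the succinate dehydrogenase genes lie near 0 or a little above.

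Markers of other cell types moved in the same libraries, and in sorted bulk cells fewer cells of a type and less RNA per cell cannot be told apart. Fibroblast and cushion markers were lower in 7 of 7 measured genes (summed level 197 RPKM in the mutant library and 419 RPKM in the control library), erythroid markers in 6 of 6 (46.8 RPKM in the mutant library and 287 RPKM in the control library), macrophage markers in 7 of 7 (7.70 RPKM in the mutant library and 42.2 RPKM in the control library) and endothelial markers in 5 of 5 (9.49 RPKM in the mutant library and 20.3 RPKM in the control library). A ratio below 1 was found for 67.1% of all measured genes. Epb4.2, Klf1 and Cdh5 of these lists were not analysed here. No measured marker was at 0, and neither was any other gene. In the mutant library 8 small RNA genes were at a fill value, so the lack of values of 0 does not show that every gene had reads. The lowest value over all genes was 0.00304 RPKM in the mutant library and 0.00431 RPKM in the control library. Epicardial markers were higher in 2 of 4 (67.4 RPKM in the mutant library and 49.1 RPKM in the control library). The rise of this sum lay in Krt19, at 28.8 RPKM in the mutant library and 9.77 RPKM in the control library. Upk3b, the other one higher, was at 33.5 and 33.1 RPKM with an interval that includes 1 (0.987 to 1.04), and Wt1 and Msln were lower. Pacemaker markers were lower in 6 of 6 (23.4 RPKM in the mutant library and 51.2 RPKM in the control library) and working muscle markers higher in 6 of 7 (1167 RPKM in the mutant library and 316 RPKM in the control library). The part of these shifts in the ratios of the pathway's genes was not tested.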

How the data were processed

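Reads were handled with Trim Galore, FastQC, TopHat2 and Bowtie2 on build mm9, per the submitters' processing notes; which tool made the gene table is not stated there. Its header names no unit. The 2 library columns were read as RPKM deposited by the authors, since small RNA genes give whole reads per library (276 of 284 in the mutant library and 284 of 284 in the control library within 0.01). The other 8 in the mutant library were at a fill value. Library totals were estimated from the step between the values of these genes, so read numbers and intervals rest on that estimate. The authors also deposited a log2 fold change, which matches the columns' own ratio within 1.89e-07; their signed fold, a score deposited by the authors, was not used. The smallest whole reads that give each RPKM pair were recovered for all 32 members (tolerance 0.002), so read numbers are minimums; they ran between 458 and 402499 in the mutant library and between 417 and 286519 in the control library. Ratio intervals are exact conditional binomial 95% intervals and cover counting error only. For a symbol with several entries the highest was kept. With 1 library per genotype no test was made. The size rule is log2(RPKM + 1) at a floor of 5 RPKM. Named genes are all members, examples from further pathway lists, and Isl1; the members and lists were chosen with earlier results of these data known, and the 1.2-fold, 50 RPKM and 100 RPKM summaries and the shares over all measured genes after seeing the values. Of the further lists, Ogdhl, Dhtkd1, Lipt2, Gpd1 and Ppard were not analysed here, and 1 more gene was left out of the lists and is not reported here. Alternatives changed the pseudocount, floor, scaling, symbol entries and overlapping genes. Python 3.11.15, numpy 2.4.6, pandas 2.3.3 and scipy 1.17.1 were used.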

Additional observations from a re-analysis of the deposited data

How the results depend on the processing

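The median log2 ratio stayed above 0 and the 2-fold counts stayed at 0 under every alternative run, while the 1.5-fold counts changed under some. The count of members at least 1.5-fold higher was 1 in place of 0 with a pseudocount of 0.1 RPKM, with ratios centred on all genes and with the level bin's median subtracted, and the count at least 1.5-fold lower was 1 in place of 0 with a pseudocount of 0.1 RPKM. The gene higher was Pcx in each of these settings, and the gene lower was Me1. The median log2 ratio ran between 0.057 (floor of 1 RPKM, or none) and 0.17 (centred on all genes), where the median shift of all genes was -0.07. The count within 1.2-fold ran between 16 (centred on all genes) and 23, and that with a ratio above 1 between 15 of 24 members (without overlapping genes) and 21 of 32. By gene, 1 of 32 directions changed on centring (Idh3b) and 1 on subtracting the level bin's median (Me3). The size of the ratios depended more on scaling. Only 6 of 32 ratios stayed within their counting interval on centring, and 12 on subtracting the level bin's median. With a pseudocount of 1 RPKM 30 did. The counting intervals thus do not cover the choice of scaling. With 1 library per genotype no replicate could be left out, and no paired analysis was possible because each group has a single library. Depth limits mainly Pdp2 and Me3, which rest on 417 to 512 reads at least.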
